A study of Homo sapiens with 6 samples.

Results

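The MYC, MAX and MXD network is a set of transcription factors that share partners and DNA binding sites. It was represented by the 10 genes MYC, MYCL, MAX, MXD1, MXD3, MXD4, MXI1, MNT, MLX and MGA, taken as the rows of the deposited expression table with those gene names, out of 58174 genes. All 10 had enough counts to be tested, among 19040 genes tested. The cells were PC9, an established human lung adenocarcinoma line, and reads were counted per gene in 6 libraries made from total RNA. In 3 libraries the cells carried an antagomir, a chemically modified antisense oligonucleotide, against the tRNA-derived small RNA tsRNA-5001a (the knockdown group). In the other 3 they carried the negative control antagomir (the control group). The labels give no dose, no time after delivery and no statement that replicates were separate cultures. Each p-value therefore reflects variation among libraries that may be only technical. The small RNA itself was not among the measured genes, so its level was not checked here.

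MYC and MYCL bind DNA only as a dimer with MAX, and the dimer activates genes at E-boxes, whose best known form is CACGTG. MXD1, MXI1, MXD3, MXD4 and MNT compete for the same partner and bring the SIN3 and histone deacetylase corepressor to the same sites. MLX pairs with MondoA (MLXIP) or ChREBP (MLXIPL) in the response to glucose, and MGA joins MAX in a Polycomb repressor complex called PRC1.6. MYC is known for high levels in growing cells and MXD1 for higher levels in cells that differentiate or stop dividing.

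The network's own binding motif was looked up in the promoter windows of its members, because it is the site that these proteins bind. The windows came from RefSeq on GRCh38.p14 and ran from 250 bases before to 50 bases after each annotated start, 300 bases in all. CACGTG, which reads the same on both strands, was present in 1 window each of MXD4, MNT and MLX, or 3 of the 9 member genes with a window that was read. Among all genes with a window 8.77% held it, as did 7.26% of all 35116 windows. A match describes these letters only, and no binding was measured. Of MXD1, which had the highest fold change among the members, the 1 window read lacked these letters, and it lay inside the gene's interval in the deposited table and not at its outer edge. The sequences below show the E-box in capitals with 12 bases on each side, on the strand of the gene; its first base lay 238 bases before the start in MXD4, 193 in MNT and 50 in MLX.
MXD4, chr4:2262330-2262359, minus strand: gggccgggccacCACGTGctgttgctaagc
MNT, chr17:2401236-2401265, minus strand: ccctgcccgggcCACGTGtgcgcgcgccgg
MLX, chr17:42567038-42567067, plus strand: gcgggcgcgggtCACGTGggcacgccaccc

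Libraries held 32342017 to 40066223 counts in the knockdown group and 34623672 to 39615278 in the control group. Expression is given as CPM, a gene's counts relative to the library's total, with totals adjusted by the trimmed mean of M-values (TMM), and each test is edgeR's quasi-likelihood test with Benjamini-Hochberg adjustment over all tested genes. The epithelial markers EPCAM, KRT7, KRT8, KRT18, KRT19 and CDH1 summed to 9861 to 12943 CPM after knockdown and to 11916 to 13666 CPM in the control. Lung lineage markers were low in both groups, at 2.30 to 2.96 against 1.41 to 2.67 CPM, with SFTPB and SFTPC at no more than 4 counts in any library. Among 6 fibroblast markers, which summed to 41.1 to 61.1 against 40.1 to 47.0 CPM, PDGFRB passed the test, while COL1A2 and COL3A1 had too few counts to be tested and LUM was at 0. Immune markers summed to 61.3 to 77.6 against 58.8 to 70.8 CPM and endothelial markers to 31.3 to 40.6 against 20.7 to 37.3 CPM.

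None of the 10 network genes passed the test at an adjusted p of 0.05, where 1.17% of all tested genes did. At an unadjusted p under 0.05 there were 5 members, against 16.5% of all tested genes. The 3 knockdown libraries did not overlap the 3 control libraries for 5 of the 10 members, against 24.3% of all genes. These were MXD1 and MYCL on the higher side (2 members, background 13.4%) and MAX, MXI1 and MXD3 on the lower side (3 members, background 10.8%). The 5 genes with an unadjusted p under 0.05 were the same 5. DESeq2, run as an alternative on the same counts, called MXD1 and MXI1, 2 of the 10, where it called 3.69% of the genes to which it gave an adjusted p. In bulk RNA a lower level in every cell and a smaller share of expressing cells cannot be told apart.

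**Figure D1:**
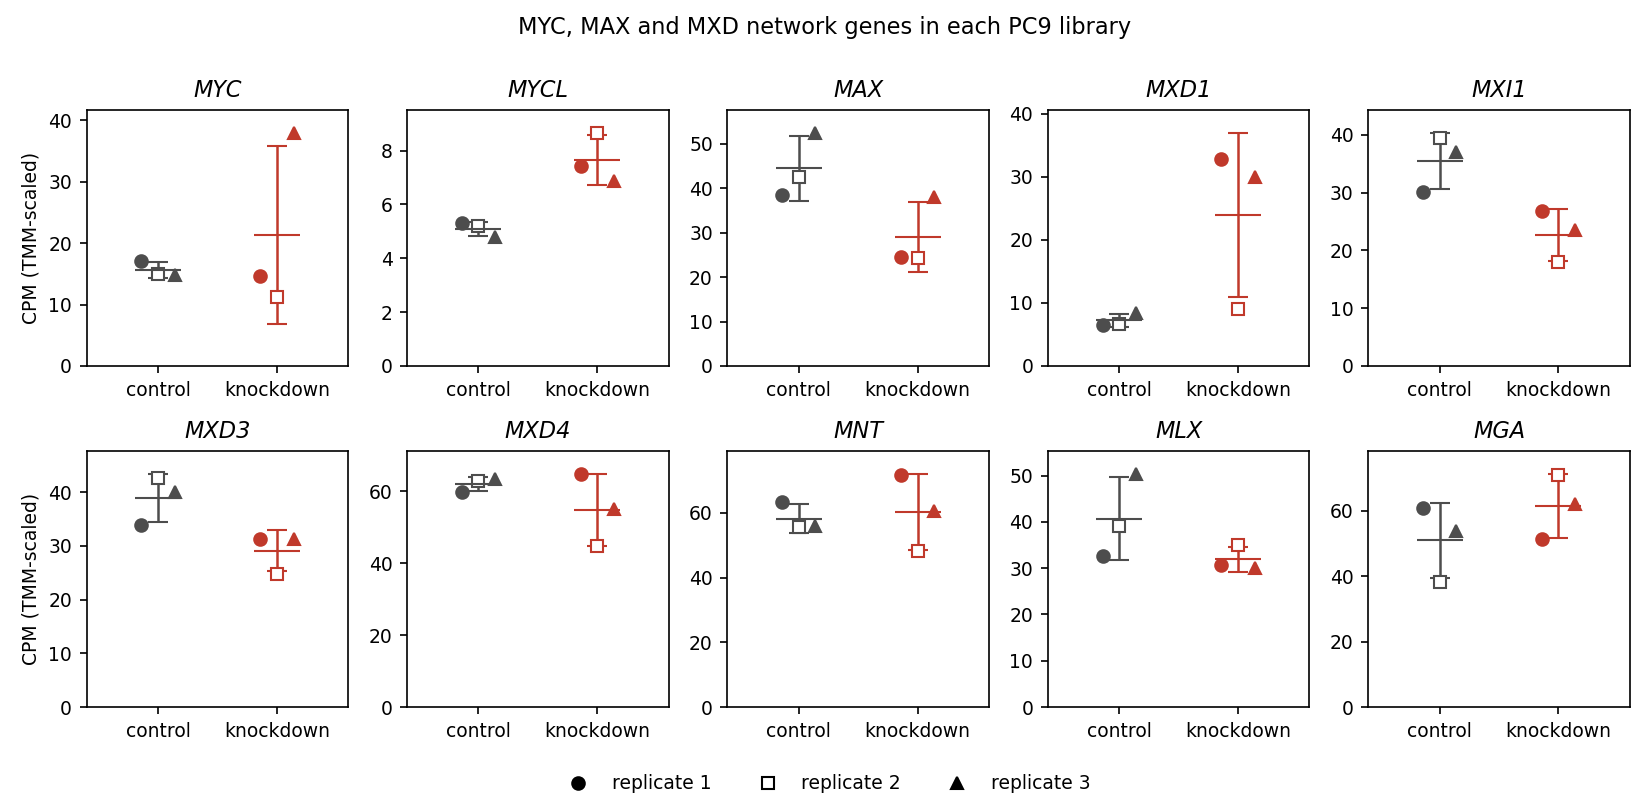
TMM-scaled CPM (y axis, from 0) of the 10 network genes in each control (grey) and knockdown (red) library of PC9 cells, with horizontal lines at the group mean and bars of 1 SD. MXD1 is high in knockdown replicates 1 and 3 (32.8 and 30.0 CPM) and close to the control in replicate 2 (9.01 CPM), and MYC is high in knockdown replicate 3 alone (37.9 CPM).

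Of the activators, MYC (chr8:127735434-127741434, plus strand, ENSG00000136997) is the broadly acting proto-oncogene of the family. It stood at 14.7, 11.3 and 37.9 CPM in knockdown replicates 1, 2 and 3 and at 17.1, 14.9 and 14.7 CPM in the controls. Knockdown replicate 1 was level with the lowest control, replicate 2 was below it and replicate 3 was the highest of all 6 libraries, so the groups overlapped. The means were 21.3 ± 14.5 against 15.6 ± 1.32 CPM (SD, n = 3 each). The log2 fold change was 0.45 (SE 0.40, 95% interval -0.46 to 1.36), with an edgeR adjusted p of 0.614. Without knockdown replicate 3 the log2 fold change of MYC was -0.27, and without knockdown replicate 2 it was 0.74, so 1 library set its sign.

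MYCL (chr1:39895426-39902256, minus strand, ENSG00000116990), the family member first described as amplified in small cell lung cancer, was measured at 7.42, 8.65 and 6.86 CPM after knockdown. Its control values were 5.29, 5.21 and 4.79 CPM. Every knockdown library lay above every control library. The means of 7.64 ± 0.919 and 5.10 ± 0.269 CPM (SD, n = 3 each) gave a log2 fold change of 0.58 (SE 0.17, 95% interval 0.19 to 0.98), and the edgeR adjusted p was 0.173. MYCL shares 226 exonic bases, 4.46% of its exons, with the antisense gene AL033527.2, which had 8, 14 and 12 counts after knockdown and 0 in each control. By pooled counts the antisense gene was at least 10.7-fold higher after knockdown, taking 3 counts over the 3 controls together as the floor. That bound covers counting error only, and the antisense gene had too few counts to be tested. No source used here says whether counting used the strand, so reads on the shared bases cannot be assigned to either gene with certainty. MYCL itself had 281, 294 and 292 counts after knockdown and 198, 168 and 183 in the control.

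MYCN, the third MYC gene, had 0 counts in all 6 libraries. Of the noncoding genes beside MYC, PVT1, a long noncoding RNA downstream of it, stood at 26.5 ± 1.16 against 21.3 ± 3.63 CPM (log2 fold change 0.32, edgeR adjusted p = 0.359), with overlapping groups. CASC11, on the opposite strand upstream of MYC, stood at 0.918 ± 0.300 against 0.312 ± 0.218 CPM, and its groups did not overlap (log2 fold change 1.54, edgeR adjusted p = 0.216). Without control replicate 1, the highest control, the log2 fold change of CASC11 was 2.28. CCAT1, a noncoding RNA transcribed farther upstream, had 17, 20 and 20 counts after knockdown and 0, 0 and 3 in the controls. The summed ratio, taking library sizes into account, was 17.9 with an exact 95% counting interval of 5.83 to 89.4, which covers counting error only. CCAT1 missed the threshold with edgeR (adjusted p = 0.0761), while DESeq2 gave an adjusted p of 0.0130, in a range of 0.0130 to 0.234 over the alternatives. All 3 of its control counts were in control replicate 3, so its fitted fold change depends on that library: the log2 value was 4.03 with all libraries, 7.22 without control replicate 3 and 0.83 with limma on log2(TPM + 0.5), and none of these is a bound. MYC itself was thus above its controls in 1 of 3 knockdown libraries, and the groups of PVT1 overlapped. CASC11 and CCAT1, both at low counts, were above their controls in all 3, as 13.4% of all tested genes were. For CASC11 the gap was narrow, with 23 counts (0.607 CPM) in knockdown replicate 1 and 21 (0.561 CPM) in control replicate 1.

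MAX (chr14:65006174-65102695, minus strand, ENSG00000125952) encodes a dimer partner of MYC, MXD, MNT and MGA proteins. It was at 24.6, 24.2 and 38.1 CPM after knockdown and at 38.4, 42.6 and 52.5 CPM in the control. Knockdown replicate 3 came within 1 CPM of the lowest control library, and the other two were well below it. The means were 28.98 ± 7.92 and 44.5 ± 7.23 CPM (SD, n = 3 each). The log2 fold change of MAX was -0.62 (SE 0.21, 95% interval -1.10 to -0.13), with an edgeR adjusted p of 0.216. Its locus overlaps FNTB and the readthrough gene CHURC1-FNTB on the other strand without shared exonic bases. FNTB stood at 28.5, 25.1 and 28.3 against 27.8, 26.1 and 31.9 CPM, and CHURC1-FNTB at 15.03, 8.74 and 8.43 against 15.7, 19.7 and 16.8 CPM, lower in every knockdown library as MAX was. Further, 4.15% of its exons are shared with the antisense gene AL139022.1, which had 14 counts in the knockdown libraries together and 5 in the controls.

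Among the MXD repressors, MXD1 (chr2:69897688-69942945, plus strand, ENSG00000059728), also called MAD1, had the greatest fold change of the 10 genes. Its counts were 1241, 306 and 1279 after knockdown and 244, 216 and 322 in the control, equal to 32.8, 9.01 and 30.0 against 6.52, 6.70 and 8.43 CPM. Knockdown replicates 1 and 3 lay far above every control library, and knockdown replicate 2 lay just above the highest control. The means of 23.9 ± 13.0 and 7.22 ± 1.05 CPM (SD, n = 3 each) differed 3.32-fold. The log2 fold change was 1.73 (SE 0.42, 95% interval 0.77 to 2.69), and the edgeR adjusted p was 0.112. Without knockdown replicate 2 the log2 fold change of MXD1 was 2.11 and its edgeR adjusted p was 0.00900, 1 of 10 members past the threshold where 0.382% of genes passed. That fit drops the knockdown library nearest the controls, which by itself narrows the spread, so it is no separate support. With any other single library left out, the edgeR adjusted p of MXD1 was 0.188 to 0.310. DESeq2 on all 6 libraries gave a log2 fold change of 1.71 and an adjusted p of 0.000442, in a range of 0.000442 to 0.310 over the alternatives. MXD1 shares 237 exonic bases, 3.73% of its exons, with SNRNP27 on the same strand, a splicing factor gene at 19.7, 22.4 and 18.2 against 19.9, 18.8 and 20.2 CPM.

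MXI1 (chr10:110207605-110287365, plus strand, ENSG00000119950), also called MXD2, encodes another MXD repressor. It stood at 26.9, 17.9 and 23.5 CPM after knockdown and at 30.1, 39.4 and 37.0 CPM in the control, without overlap. The means were 22.8 ± 4.51 and 35.5 ± 4.84 CPM (SD, n = 3 each), a log2 fold change of -0.64 (SE 0.19, 95% interval -1.07 to -0.22) with an edgeR adjusted p of 0.165. DESeq2 gave MXI1 a log2 fold change of -0.67 and an adjusted p of 0.0446, in a range of 0.0446 to 0.750 over the alternatives. MXD1 and MXI1 therefore lay on opposite sides of their controls in all 3 knockdown libraries. There were 1.22, 0.502 and 1.28 counts of MXD1 per count of MXI1 after knockdown and 0.217, 0.170 and 0.228 in the control. This ratio does not depend on how libraries are scaled. Since MXD1 and MXI1 were each already separated, in opposite directions, the separation of their ratio was fixed in advance. It is no added support and was not tested.

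MXD3 (chr5:177301461-177312757, minus strand, ENSG00000213347), the MXD gene linked to dividing cells, was at 31.3, 24.8 and 31.4 CPM after knockdown and at 34.0, 42.7 and 40.1 CPM in the control. All 3 knockdown libraries were below all 3 controls, with means of 29.1 ± 3.77 and 38.9 ± 4.47 CPM (SD, n = 3 each). Its log2 fold change was -0.42 (SE 0.16, 95% interval -0.77 to -0.06) and its edgeR adjusted p was 0.247. MXD3 shares 22.5% of its exonic bases with PRELID1 on the other strand and 18.0% with RAB24 on its own strand. PRELID1 was counted at 144, 60.3 and 141 against 107, 92.5 and 111 CPM, and RAB24 at 13.2, 10.9 and 11.3 against 8.13, 10.3 and 9.09 CPM. The value of MXD3 is therefore uncertain, since no source used here gives the counting rule for shared bases.

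MXD4 (chr4:2247432-2262294, minus strand, ENSG00000123933), a further MXD repressor, was at 64.7, 44.8 and 55.0 CPM after knockdown and at 59.7, 63.0 and 63.3 CPM in the control. Knockdown replicate 1 was the highest of the 6 libraries and replicate 2 the lowest. The log2 fold change of MXD4 was -0.18 (SE 0.15, 95% interval -0.53 to 0.17), with an edgeR adjusted p of 0.603. MNT (chr17:2384060-2401118, minus strand, ENSG00000070444), the widely expressed MAX partner that opposes MYC, stood at 71.7, 48.3 and 60.6 against 63.3, 55.5 and 55.8 CPM. Its knockdown libraries spanned the control range on both sides. MNT had a log2 fold change of 0.05 (SE 0.16, 95% interval -0.32 to 0.42) and an edgeR adjusted p of 0.908.

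MLX (chr17:42567068-42573239, plus strand, ENSG00000108788) encodes the MAX-like partner of the glucose-responsive factors. It was at 30.7, 35.1 and 30.1 CPM after knockdown and at 32.7, 39.1 and 50.3 CPM in the control, with overlap through knockdown replicate 2. Its log2 fold change was -0.35 (SE 0.18, 95% interval -0.75 to 0.06), with an edgeR adjusted p of 0.369. MLX shares 18.1% of its exonic bases with PSMC3IP on the other strand, which stood at 2.88, 3.94 and 4.81 against 4.22, 4.74 and 3.43 CPM. Of its partners, MLXIP was at 160 ± 19.1 against 164 ± 18.7 CPM (log2 fold change -0.04, edgeR adjusted p = 0.920), and its log2 fold change was 0.084 when libraries were scaled by their size only. MLXIPL was at 6.73 ± 0.998 against 9.33 ± 0.842 CPM, lower in all 3 knockdown libraries (log2 fold change -0.47, edgeR adjusted p = 0.254). Of the glucose-response genes of these dimers, TXNIP, an inhibitor of thioredoxin and glucose uptake, had a value of 0.09 (edgeR adjusted p = 0.765) and its relative ARRDC4 one of 0.52 (edgeR adjusted p = 0.173), and PKLR had too few counts to be tested.

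MGA (chr15:41621224-41773081, plus strand, ENSG00000174197), the largest protein of the network, was at 51.4, 70.8 and 62.1 CPM after knockdown and at 60.7, 38.3 and 53.6 CPM in the control. The groups overlapped, with control replicate 2 the lowest and knockdown replicate 2 the highest. The log2 fold change of MGA was 0.27 (SE 0.20, 95% interval -0.17 to 0.72), with an edgeR adjusted p of 0.525.

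**Figure D2:**
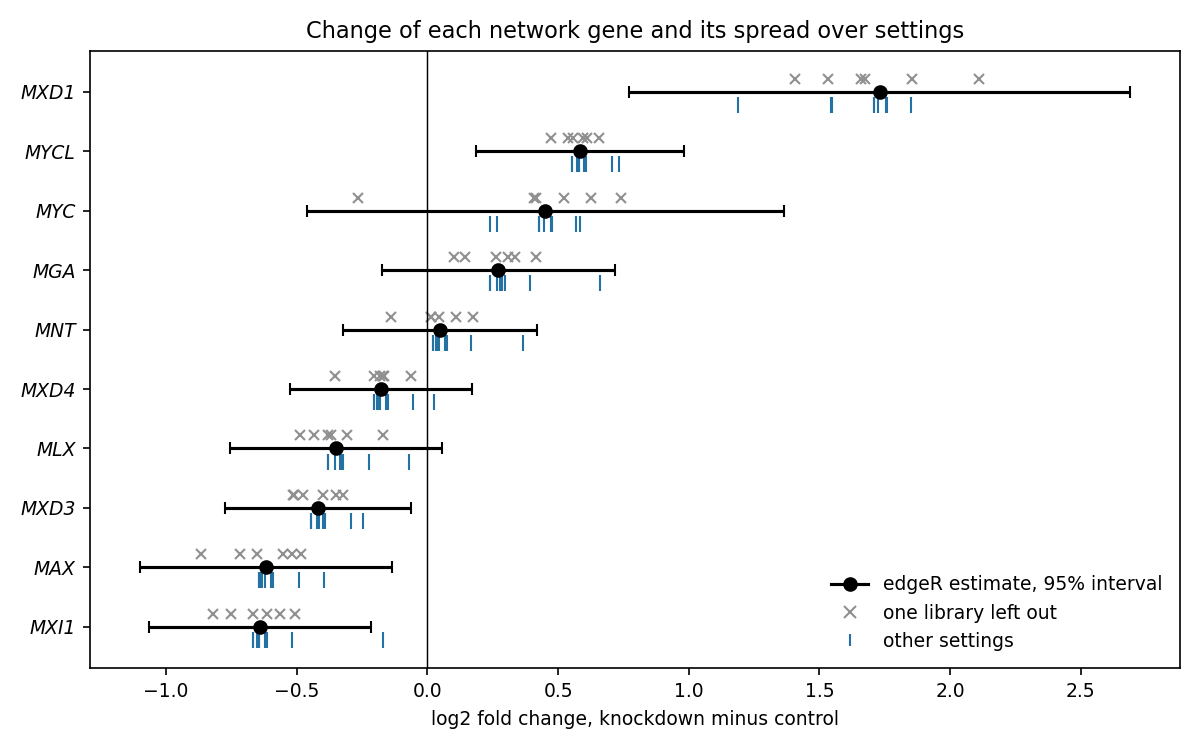
Log2 fold change, knockdown minus control (x axis), of each network gene from edgeR with its 95% interval (black), with 1 library left out in turn (crosses) and under the other settings (blue ticks). MXD1 lies between 1.19 and 2.11 throughout, and MYC lies on both sides of 0 when single libraries are left out.

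The knockdown libraries were not alike across the network. Knockdown replicate 2 was the lowest of the 3 for 7 of the 10 members (MXD1, MXI1, MAX, MXD3, MXD4, MYC and MNT), while it was the lowest for 40.4% of all tested genes. Knockdown replicate 1 was the highest for 4 members (MXD1, MXI1, MXD4 and MNT), against 35.8% of all tested genes. Knockdown replicate 2 was so for 3 (MYCL, MLX and MGA), against 40.2%, and knockdown replicate 3 for 3 (MAX, MXD3 and MYC), against 24.0%. The log2 fold change kept its sign for 7 of the 10 members in all 15 alternative analyses. The exceptions were MYC without knockdown replicate 3 (-0.27), MNT without knockdown replicate 1 (-0.14) and MXD4 on the deposited length-scaled values described next (0.026). The pattern of replicates, with 2 of 3 knockdown libraries high for MXD1 and 1 of 3 for MYC, is visible in the plot of CPM by library.

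Counts of different genes cannot be compared without their length, so levels between members are given as the authors' deposited TPM, counts divided by gene length and scaled to the same total in every library. In the control the order was MAX at 44.4 ± 5.96, MLX at 37.5 ± 4.11, MXD3 at 32.4 ± 2.81, MXI1 at 30.7 ± 4.74, MXD4 at 28.7 ± 1.86 and MNT at 21.2 ± 3.68 TPM (SD, n = 3). Then came MYC at 14.2 ± 1.61, MGA at 8.65 ± 0.852, MXD1 at 3.20 ± 0.935 and MYCL at 2.81 ± 0.362 TPM (SD, n = 3). The ranges of neighbours in that order overlapped for MAX and MLX, for MXD3 and MXI1, for MXI1 and MXD4 and for MXD1 and MYCL, so those pairs have no settled order. The repressor genes MXD3, MXI1, MXD4 and MNT each exceeded MYC in TPM in the control, and MXD1 was the least abundant of the MXD genes.

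After knockdown the mean TPM order was MLX at 35.7, MAX at 34.8, MXD4 at 29.7, MXI1 at 28.9, MNT at 27.3, MXD3 at 27.3, MYC at 24.3, MGA at 14.1, MXD1 at 8.59 and MYCL at 5.03. MGA and MXD1 were the only neighbours whose ranges did not overlap. MXD1 remained the second lowest member by mean TPM. Its TPM values were 11.1, 3.73 and 10.9 after knockdown and 3.20, 2.26 and 4.13 in the control, so on this scale knockdown replicate 2 lay within the control range.

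**Figure D3:**
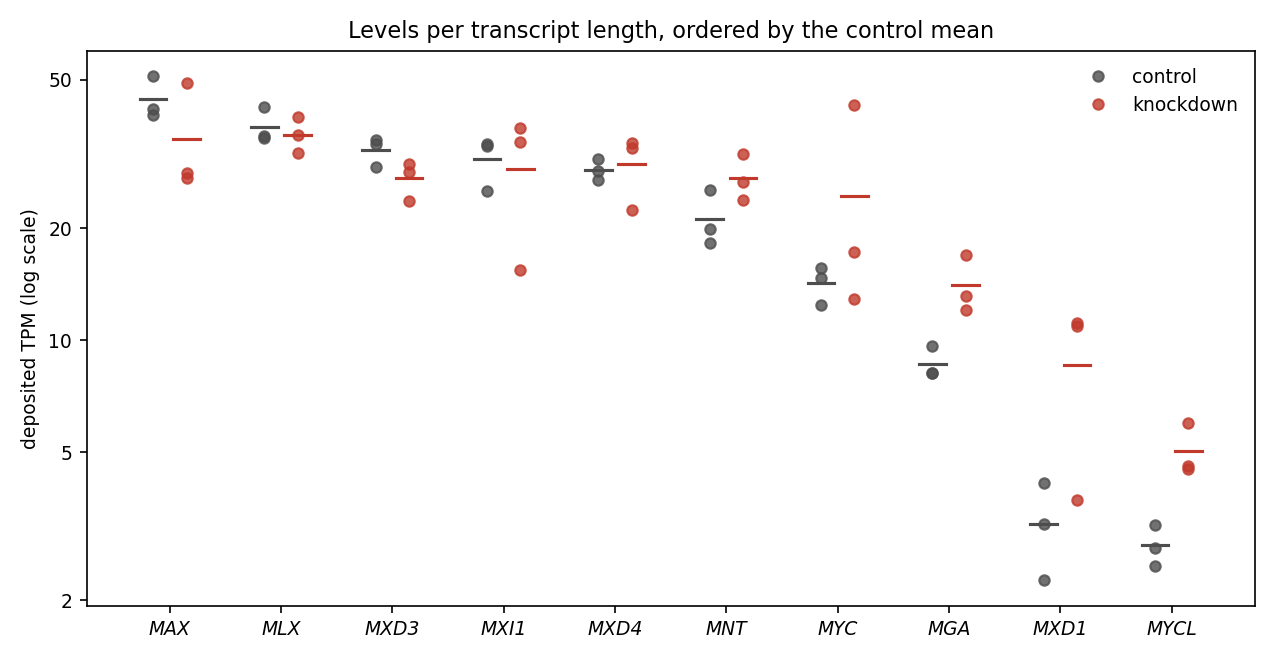
Deposited TPM on a log axis for each network gene, ordered by the control mean, with 1 point per library and a line at each group mean (control grey, knockdown red). MAX and MLX are the highest in both groups and MXD1 and MYCL the lowest, and the knockdown points of MYC spread from 12.9 to 42.8 TPM.

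The gene length behind TPM was not constant between libraries. Taken relative to other genes of the same library, the length of MXD1 implied by counts and TPM was 2.49, 2.18 and 2.45 after knockdown and 1.61, 2.03 and 1.55 in the control. Its highest value was 1.61 times its lowest, against 1.14 times for the median gene, and the spread was 2.09 times for MGA and 1.83 times for MXI1. MGA and MXI1 exceeded 94.9% and 92.2% of tested genes in this spread, and MXD1 exceeded 87.7%. With limma on log2(TPM + 0.5), the log2 fold changes were 1.19 for MXD1, 0.66 for MGA (limma adjusted p = 0.119) and -0.17 for MXI1, against 1.73, 0.27 and -0.64 from counts. In TPM the libraries of MXI1 overlapped, at 37.1, 15.4 and 34.0 after knockdown and 33.2, 33.6 and 25.2 in the control.

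Because all the dimers with MAX draw on one partner, the counts of each member were also set against those of MAX in the same library, a ratio that no library scaling alters. MXD1 had 1.33, 0.372 and 0.788 counts per MAX count after knockdown and 0.170, 0.157 and 0.161 in the control, with means of 0.831 ± 0.482 and 0.163 ± 0.00652 (SD, n = 3 each). The ratio of those means was 5.11. The corresponding ratio was 2.39 for MYCL, 1.91 for MYC and 1.90 for MGA, and its median over all tested genes but MAX was 1.63. For these 4 genes of the 9 compared, every knockdown library lay above every control library, and the other 5 overlapped. Over all tested genes but MAX, 40.5% were higher per MAX count without overlap and 0.142% were lower, so 4 of 9 on the higher side was near the background and is no result about these members. MYC had 0.597, 0.465 and 0.995 counts per MAX count after knockdown and 0.446, 0.350 and 0.281 in the control, groups that did not overlap on this scale. The 9 ratios share the MAX counts, which were lower in every knockdown library, so they are not independent of each other. None was tested.

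**Figure D4:**
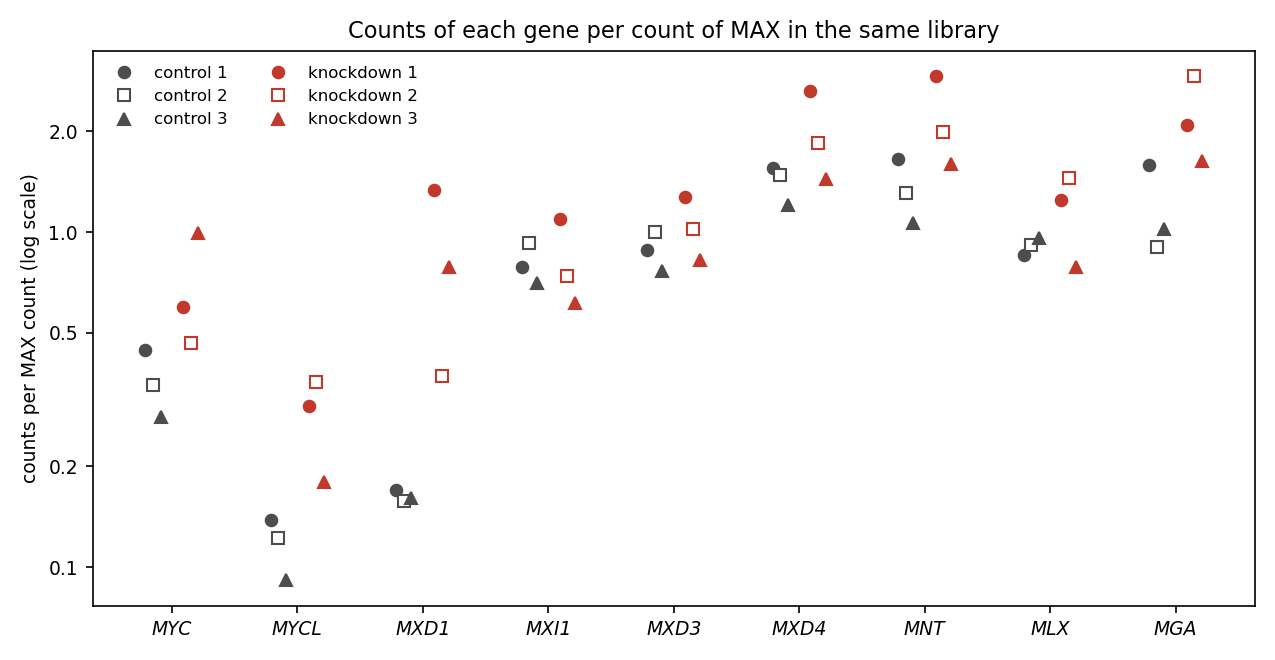
Counts of each network gene per count of MAX in the same library (log axis), control in grey and knockdown in red, with the replicate shown by the marker. MXD1 sits near 0.16 in all 3 controls and between 0.372 and 1.33 after knockdown, and MYC, MYCL and MGA also have no overlap, as do 40.5% of all tested genes on the higher side of this ratio to MAX.

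The genes that the network is known to act on, and the complexes it works with, were followed in lists. These lists were chosen with earlier results of these data known, so counts within them are descriptions only. Of 35 tested genes that MYC is known to activate, such as nucleolar and nucleotide synthesis genes, none passed the test in either direction, and 9 had an unadjusted p under 0.05, against 16.5% of all tested genes. Among them 28 had a log2 fold change below 0 and 7 above, with a median of -0.21, against a median of 0.05 over all tested genes, of which 44.1% were below 0. For 14 of the 35, all lower, the groups did not overlap, against 10.8% of all genes on that side, a share that was higher in abundant genes. IMPDH2, the rate-limiting enzyme of guanine nucleotide synthesis, was at 156 ± 14.2 against 211 ± 10.8 CPM (log2 fold change -0.43, edgeR adjusted p = 0.145), and SRM, spermidine synthase, at 34.2 ± 5.17 against 49.1 ± 5.92 CPM (-0.52, edgeR adjusted p = 0.185). Abundance moved with this measure: among all tested genes above 8 on the log2 CPM scale 79.7% were below 0, with a median of -0.17, and from 6 to 8 it was 61.7%, with a median of -0.07. Of the 9 listed genes above 8, 7 were below 0 and 1 was lower without overlap, where 36.4% of all genes in that range were. Of the 17 listed genes from 6 to 8, 15 were below 0 and 9 were lower without overlap, where 20.5% of all genes in that range were. From 4 to 6 there were 8 listed genes, 5 below 0 and 4 lower without overlap. Among all genes in that range 48.5% were below 0 and 12.4% were lower without overlap. The part of abundance in the list's median was not tested.

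Of 10 genes that MYC is known to repress, 3 rose and none fell, where 1.17% of all tested genes were called in either direction. Because this list was also chosen with earlier results known, the excess over that share is no test of MYC repression. A log2 fold change above 0 was found for 9 of the 10, with a median of 0.34, against 55.9% of all tested genes. For 6 of the 10, all higher, the groups did not overlap, against 13.4% of all genes on that side. PDGFRB, the receptor for platelet-derived growth factor B, stood at 7.55, 4.30 and 7.28 CPM after knockdown and at 1.02, 0.651 and 0.838 CPM in the control (log2 fold change 2.92, SE 0.30, edgeR adjusted p = 0.00502). Every knockdown library was more than 4 times the highest control, the call held in 15 of 15 alternatives, and the gene is also 1 of the 6 fibroblast markers given above. GADD45A, a growth arrest and DNA damage gene, stood at 115, 85.7 and 110 CPM against 40.1, 46.7 and 40.03 CPM (1.29, SE 0.15, edgeR adjusted p = 0.00839, and 0.0785 with the replicate block). CDKN1C, which encodes the cyclin-dependent kinase inhibitor p57, stood at 7.82, 6.77 and 8.20 against 2.73, 3.94 and 2.57 CPM (1.31, SE 0.22, edgeR adjusted p = 0.0367). It kept its call in 8 of 15 alternatives and lost it with the replicate block, without the low-count filter, without knockdown replicate 1, 2 or 3 and without control replicate 1 or 3, with an adjusted p of up to 0.160 over the alternatives. DESeq2 called 4 genes of the companion lists, these 3 and CCAT1. All 3 genes have other known regulators, p53 and stress pathways for GADD45A among them, and the part of MYC in their levels was not tested.

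Chromatin partners of MYC gave no call in 14 tested genes, 4 above and 10 below 0, with a median of -0.10 and 4 genes at an unadjusted p under 0.05, where 16.5% of all tested genes were, as for the lists that follow. The lowest adjusted p values there belonged to the acetyltransferase genes KAT2A (log2 fold change -0.45, edgeR adjusted p = 0.172) and KAT5 (-0.33, edgeR adjusted p = 0.264). Groups did not overlap for 6 of the 14, all lower, against 10.8% of all genes on that side. Regulators of MYC protein stability gave no call in 12 genes, 6 on each side of 0, with a median of 0.01 and 1 gene at an unadjusted p under 0.05. AURKA, a kinase that shields MYC proteins from degradation, was at -0.26 on the log2 scale (edgeR adjusted p = 0.280), and STUB1, a ubiquitin ligase, at -0.31 (edgeR adjusted p = 0.342). Among the 12 stability regulators, 2 were lower without overlap, against 10.8% of all genes, and none was higher without overlap.

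The SIN3 and histone deacetylase complex that MXD proteins recruit gave no call in 14 genes, 4 above and 10 below 0, with a median of -0.07 and 1 gene at an unadjusted p under 0.05. HDAC1, one of its deacetylases, was at -0.26 on the log2 scale (edgeR adjusted p = 0.263) and ARID4A, a SIN3 complex subunit, at 0.57 (edgeR adjusted p = 0.310). Without overlap, 1 of the 14 was higher and 1 lower, against 13.4% and 10.8% of all genes. The PRC1.6 complex that holds MGA and MAX gave no call in 9 genes, 5 above and 4 below 0, with a median of 0.04 and 2 genes at an unadjusted p under 0.05. TFDP1, an E2F dimerization partner, was at -0.32 on the log2 scale (edgeR adjusted p = 0.209), and RYBP, a Polycomb subunit, at 0.41 (edgeR adjusted p = 0.294). Without overlap, 2 of the 9 PRC1.6 genes were higher and 2 lower, against the same 13.4% and 10.8%.

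**Figure D5:**
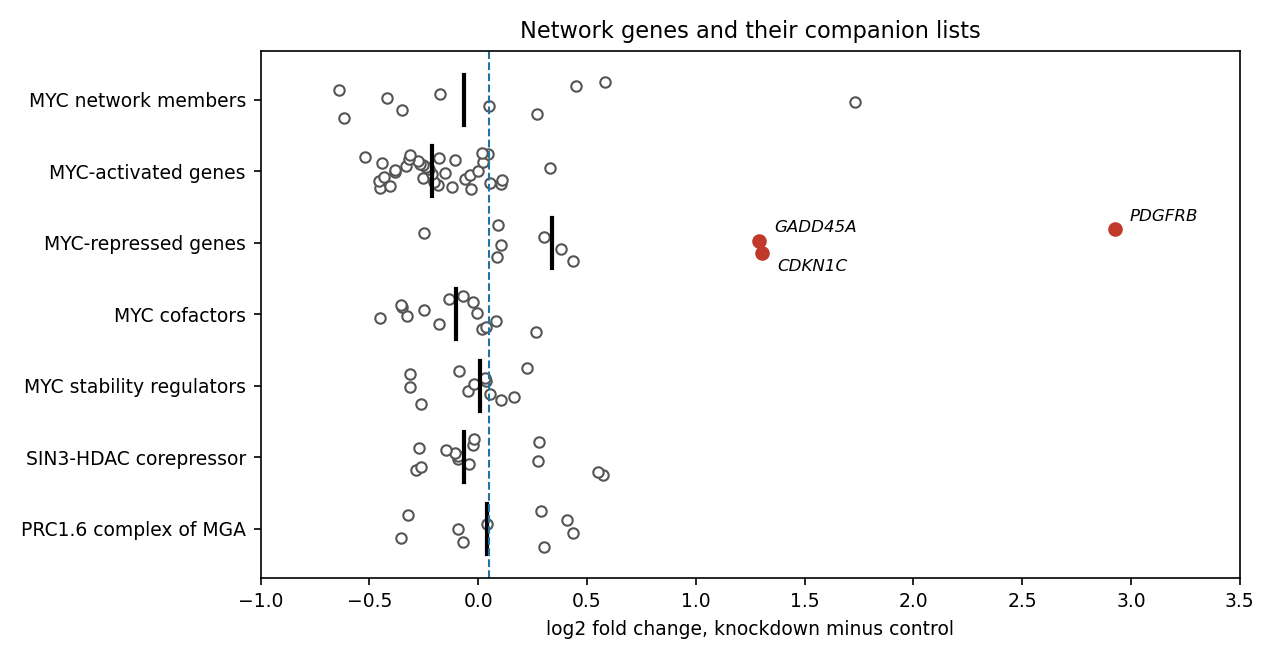
Log2 fold change, knockdown minus control, of the network members and of the genes in 6 companion lists (1 point per tested gene, filled and named where the edgeR adjusted p was under 0.05), with a black line at each list's median and a dashed line at the median of all tested genes (0.05). The 3 named genes are all in the list of genes repressed by MYC, and the MYC-activated genes lie mostly to the left of the dashed line.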

How the data were processed

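Gene counts and TPM for 3 knockdown and 3 control libraries were read from the deposited table. The labels' protocols state only that reads from an Illumina instrument were mapped and counted per gene; the aligner, the counter and their strand setting are named in none of the sources used here. The submitters' processing notes name hg19, but of 57836 genes shared with GENCODE 29 96.9% had its GRCh38 coordinates, all 10 members included, so GRCh38 coordinates are printed as the table gives them. The deposited TPM values were used for levels between genes and for one alternative.

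Counts were fitted with edgeR 4.0.16 in R 4.3.3: filterByExpr at a minimum of 10 counts, TMM scaling, quasi-likelihood F-test, threshold 0.05. The common biological coefficient of variation was 22.9%. Counts were simulated for 18553 genes with these libraries' sizes and the spread typical of each gene's abundance. On them the test recovered 14.9% of genes changed 1.5-fold, 55.2% at 2-fold and 100% at 4-fold. These shares do not hold for genes with a wider spread between libraries, such as MXD1 and MYC. Replicates of a group differed by more than counting noise.

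Alternatives were DESeq2 1.42.0 (size factors alone and its Wald test), scaling by library size or upper quartile, no filter, at least 50 counts in 3 libraries, limma-voom (limma 3.58.1), replicate number as a block, each library left out, and, chosen after seeing the data, limma on log2(TPM + 0.5). Named genes were all members, the other MYC and MLX family genes, noncoding genes at the MYC locus, overlapping genes, and from each list up to 4 genes past the test with the lowest adjusted p, or the 2 lowest where none passed. The members, lists and tests were chosen with earlier results of these data known. Counting intervals cover counting error only. MYC had no promoter window in the sequences used here. Figures used matplotlib 3.10.9 and Python 3.11.15, and intervals scipy 1.17.1.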

Additional observations from a re-analysis of the deposited data

How the results depend on the processing

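The test called 223 genes, 209 higher and 14 lower after knockdown. Without a low-count filter it called 147 genes, with the stricter filter 141, with the replicate block 34, and with limma on the deposited TPM 389. The DESeq2 test called 701 genes, 483 higher and 218 lower, a more even split. With 1 library left out the count ranged from 64 to 114. Of the 10 members 0 were called, 2 with the DESeq2 test and 0 to 1 with a library left out. Of the companion genes 3 were called, 1 with the replicate block and 6 on TPM. Same-numbered libraries did not deviate together (correlations of 0.01, -0.08 and -0.03), which gives no pairing of samples by number. The median log2 fold change of all genes was 0.05, 0.17 with library size alone and 0.24 on TPM. Single genes that changed sign were MLXIP (0.084 with library size alone, 0.30 on TPM, -0.17 to 0.053 with a library left out), MYC (-0.27 to 0.74), MNT (-0.14 to 0.17) and TXNIP (-0.045 to 0.16), each with a library left out, and on TPM MXD4 (0.026) and STUB1 (0.016). The cause of these changes was not tested. Of 30 named genes, overlapping genes aside, 28 were run under all 15 alternatives and 22 of these kept their direction; CASC11 and CCAT1 had too few counts for the stricter filter and kept theirs under the others. With 3 libraries a group, changes of the size seen for most members (under 1.5-fold) were seldom recovered in simulated counts, so a missed threshold does not show that a member was unchanged.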
